A study of Mus musculus with 4 samples.

Results

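The genes described here are 34 genes of protein folding, quality control and stress signalling in the endoplasmic reticulum (ER), out of 18193 genes that the probe sets of the array name singly. They were chosen by name, with earlier results of these data known. Every probe set whose annotation names 1 of them and no other gene was taken, 81 probe sets in all. The tissue was the heart ventricle of mouse embryos at embryonic day 17.5, from a cross of C57BL/6 and SV129, and transcript levels were read on 4 Affymetrix MOE430v2 arrays as MAS5 signals on a linear scale. The WT group was 2 arrays of wild-type embryos, each from a pool of 2 animals, and the KO group was 2 arrays of HDAC2-deficient littermates, each from a pool of 3. HDAC2 is a class I histone deacetylase, and the question is how the transcripts of the late embryonic ventricle differ in its absence. The allele, whether the gene was removed in all cells or in some, and whether pools shared animals are not stated in the labels. The p-values therefore rest on the spread between these pools, shared across probe sets in the fit, and that spread may in part be technical.

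The ER is where secreted and membrane proteins are threaded through the Sec61 channel, folded by chaperones such as BiP, cross-linked by protein disulphide isomerases and, where folding fails, sent back to the cytosol for degradation. When unfolded protein builds up, the sensors IRE1, ATF6 and PERK raise the output of chaperone and degradation genes and slow translation, a programme called the unfolded protein response. In heart muscle this system serves the secreted natriuretic peptides, the membrane proteins and the calcium store of the cell, and the chaperone calreticulin is required in the developing heart.

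Pdia6, a protein disulphide isomerase that forms and rearranges disulphide bonds and also acts on the stress sensors, was the member that rose in KO, by 1.90-fold. None of the others passed the test in either direction. Of the 34 genes, 33 had at least 1 probe set called Present on both arrays of a group and were tested. With each gene taken at its brightest tested probe set, 1 of 33 was higher and 0 were lower at an adjusted p under 0.05 in limma, against 0.481% higher and 0.815% lower of the 10184 genes tested across the array. At an unadjusted p under 0.05, 4 were higher and 1 was lower, where the array as a whole had 8.42% higher and 7.14% lower. Over all 60 tested probe sets of these genes, 1 was higher and 0 were lower, against 0.383% and 0.96% of the 19065 tested on the array (1.34% in either direction). At an unadjusted p under 0.05, 5 of the 60 were higher and 2 lower, against 7.29% and 8.23%, and 41 differences were positive, against 52%. Both KO arrays lay above both WT arrays at 21 of the 60 and below at 8, against 25% and 22.5%. The median difference of the 33 genes, KO minus WT on the log2 scale, was 0.11, against 0.035 for all genes tested, and 25 of the 33 differences were positive, against 55.7% of all genes. The median of the genes on each array, relative to their WT means, was 0.10 and 0.11 on the KO arrays. Both KO arrays lay above both WT arrays for 14 of the 33 and below for 4, against 28% and 20.6% of all genes.

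The spread between arrays set how small a change could have been seen. Standard errors of the 33 differences ran from 0.092 to 0.26 on the log2 scale, with a median of 0.14. All standard errors given here are limma's moderated ones, which borrow spread from the other tested probe sets. The 95% interval of the difference, from limma's moderated statistic and not adjusted for the number of genes, lay within 2-fold in either direction for 32 genes, Pdia6 being the exception, and within 1.5-fold for 24. A miss of the threshold therefore leaves room for changes of those sizes and does not show that the transcript level was equal. In a whole ventricle, fewer cells of a type and less RNA per cell cannot be told apart.

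**Figure D1:**
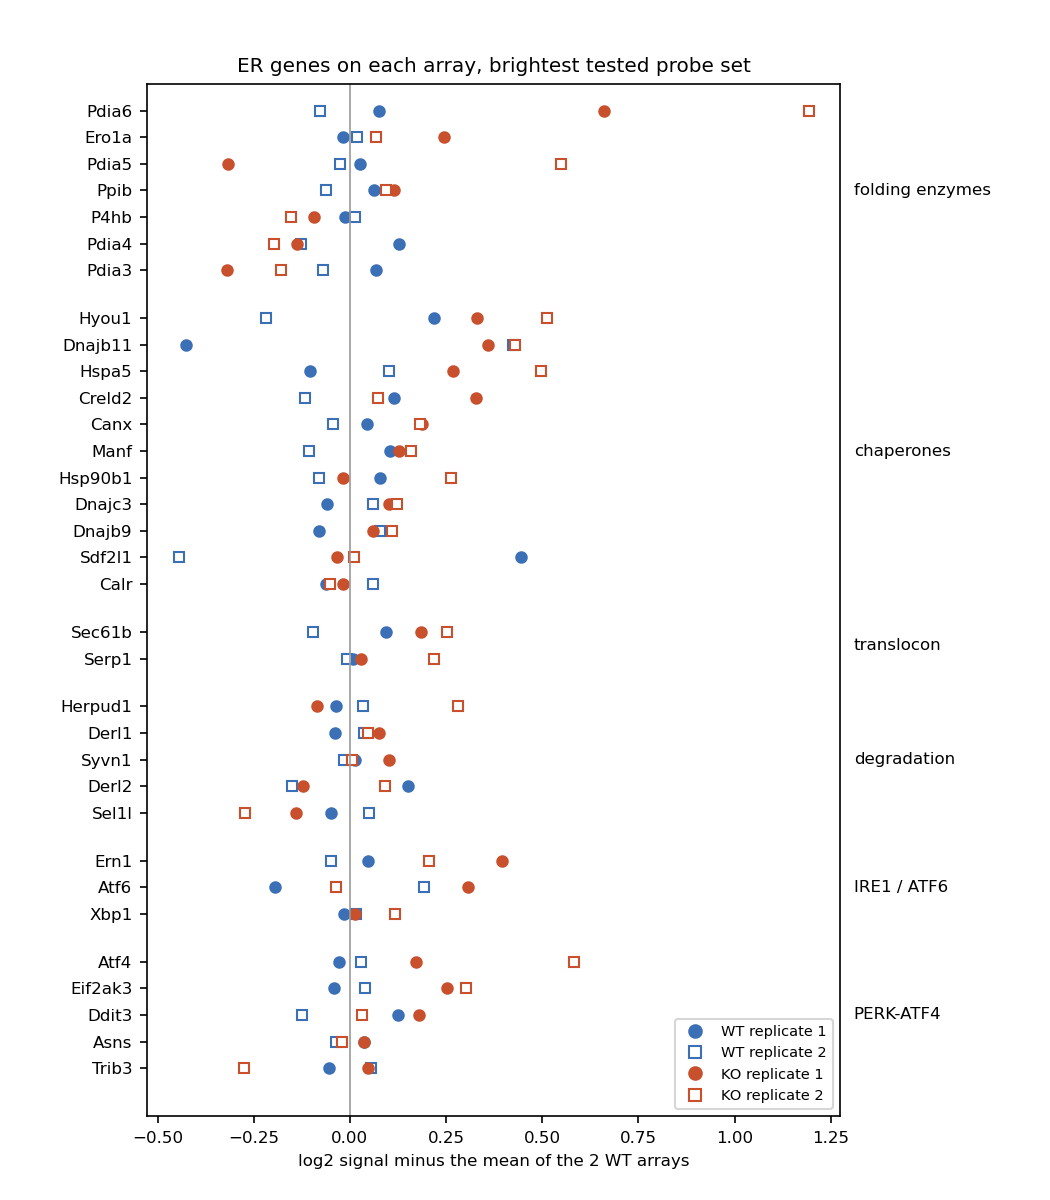
Log2 signal of each of the 33 tested ER genes on each of the 4 arrays, minus the mean of the 2 WT arrays, at the brightest tested probe set and grouped by role; circles are replicate 1 and squares replicate 2, blue for WT and red for KO. Pdia6 is the gene whose 2 KO arrays stand farthest to the right, while for 15 of the 33 genes the WT and KO arrays overlap.

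Several of these genes share a control sequence of the stress response. The members were chosen as genes of ER folding and stress, so their share with it is not independent of the choice. The ER stress response element (ERSE), bound by ATF6 and XBP1 with the CCAAT factor NF-Y, was searched on both strands as CCAAT, any 9 bases and CCACG in RefSeq promoter windows of assembly GRCm38.p6, which run from 250 bases before to 50 bases after each annotated start. Windows were found for 30 of the 34 genes, without Atf6, Derl1, Hyou1 and Manf. The element stood in the windows of 8 of the 30 genes (26.7%), against 37 of 27025 genes (0.137%) with a window in the same table. Those 8 are shown because they include Pdia6 and Hspa5, which had the smallest p-values among the 33 brightest probe sets. Each is written 5′ to 3′ on the strand of the gene, with the element in capitals; where the capitals begin with CGTGG the element lies on the opposite strand.
Pdia6, chr12:17266479-17266519, plus strand: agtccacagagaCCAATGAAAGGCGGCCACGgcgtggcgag
Hspa5, chr2:34772013-34772053, plus strand: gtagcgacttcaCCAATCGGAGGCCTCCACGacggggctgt
Hsp90b1, chr10:86705628-86705668, minus strand: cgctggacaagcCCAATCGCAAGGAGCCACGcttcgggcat
Hsp90b1, chr10:86705523-86705563, minus strand: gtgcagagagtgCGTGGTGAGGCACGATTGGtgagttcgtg
Canx, chr11:50325790-50325830, minus strand: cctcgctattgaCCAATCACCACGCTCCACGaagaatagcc
Calr, chr8:84847065-84847105, minus strand: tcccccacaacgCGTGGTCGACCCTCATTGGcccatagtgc
Dnajc3, chr14:118937815-118937855, plus strand: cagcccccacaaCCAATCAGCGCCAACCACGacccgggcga
Creld2, chr15:88819508-88819548, plus strand: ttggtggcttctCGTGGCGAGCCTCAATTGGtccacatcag
Syvn1, chr19:6046520-6046560, plus strand: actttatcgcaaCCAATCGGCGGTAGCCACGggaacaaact

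The element began 98 bases before the start of Pdia6 and 65 bases before that of Hspa5, and Hsp90b1 carried it at 212 and 107 bases before its start. The 8 genes with the element had log2 differences from -0.035 (Calr) to 0.93 (Pdia6), with a median of 0.15, or 0.12 without Pdia6. The 21 tested genes whose window lacked it ran from -0.25 to 0.39, with a median of 0.097. These are descriptions of the windows, with no test.

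The related element ERSE-II was searched as ATTGG, any 1 base and CCACG, and stood in the windows of 2 of the 30 genes, Herpud1 and Dnajb11, against 0.0444% of all genes. In Dnajb11 it lay after the annotated start. The element read by XBP1, searched as TGACGTGG, was found in 0 of the 30 windows and in 0.714% of all genes. The element read by ATF4 and its partners, searched as TGATGNAA, stood in the windows of Asns, Herpud1 and Trib3, against 4.51% of all genes, and overlapped none of the others. Herpud1 and Asns are shown with the element in capitals, as the genes of the degradation and amino acid branches whose windows carried one before the start.
Herpud1, ERSE-II, chr8:94386365-94386397, plus strand: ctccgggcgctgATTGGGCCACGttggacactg
Asns, ATF4 element, chr6:7693215-7693244, minus strand: gtcccagccacaTGATGAAActtcccgcac

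Among the folding enzymes, 1 of 7 rose and 0 fell, against 0.481% and 0.815% of all genes. The median difference was 0.10, or -0.0091 over the 6 other than Pdia6. At probe set 1423648_at, the Pdia6 signals were 736 and 662 in WT against 1104 and 1595 in KO. Both KO arrays lay above both WT arrays, and the 2 KO arrays stood farther apart than the 2 WT arrays. The difference was 0.93 ± 0.15 (moderated SE, n = 2 arrays per group), or 1.90-fold. Its 95% interval was 0.60 to 1.26, with an adjusted p = 0.00818 in limma. A second Pdia6 probe set, 1430983_at, was called Absent on all 4 arrays and was not tested, at signals of 7.5 and 4 in WT against 28.4 and 16 in KO. The difference at 1423648_at passed with each array left out in turn, at 0.66 to 1.19, and its call ended without a variance trend (adjusted p = 0.247), without the filter on detection (adjusted p = 0.213) and in the deposited signal log ratio (0.70 ± 0.25, adjusted p = 0.388).

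None of the other disulphide isomerases passed the test. Pdia3, the isomerase that works with calnexin and calreticulin on glycoproteins, had signals of 1648 and 1497 in WT against 1259 and 1388 in KO. Its KO arrays lay below its WT arrays, and the difference was -0.25 ± 0.11, short of the threshold (adjusted p = 0.299 in limma). P4hb, the archetypal isomerase that is also a subunit of collagen prolyl hydroxylase, measured 3049 and 3105 in WT against 2886 and 2768 in KO (-0.12 ± 0.093). Pdia4, an isomerase of secretory proteins, stood at -0.17 ± 0.18, its KO arrays at 156 and 149 against 187 and 157 in WT. Pdia5 read 128 and 123 in WT but 101 and 184 in KO, so that its 2 KO arrays lay on either side of WT (0.12 ± 0.25), and its sign turned without KO replicate 2 (-0.32). Whether Pdia6 differed more than these relatives was not tested.

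Ero1a, listed as Ero1l in older annotation, encodes the oxidase that recharges the isomerases. It had signals of 518 and 532 in WT against 622 and 550 in KO (0.16 ± 0.13, adjusted p = 0.591 in limma), and its 2 other probe sets stood at 0.082 ± 0.20 and 0.10 ± 0.18. Ppib, cyclophilin B, a prolyl isomerase needed for folding of collagen, measured 3648 and 3345 in WT against 3782 and 3728 in KO (0.10 ± 0.093). Its other probe set stood at -0.0023 ± 0.11. Neither gene passed the test at any probe set.

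**Figure D2:**
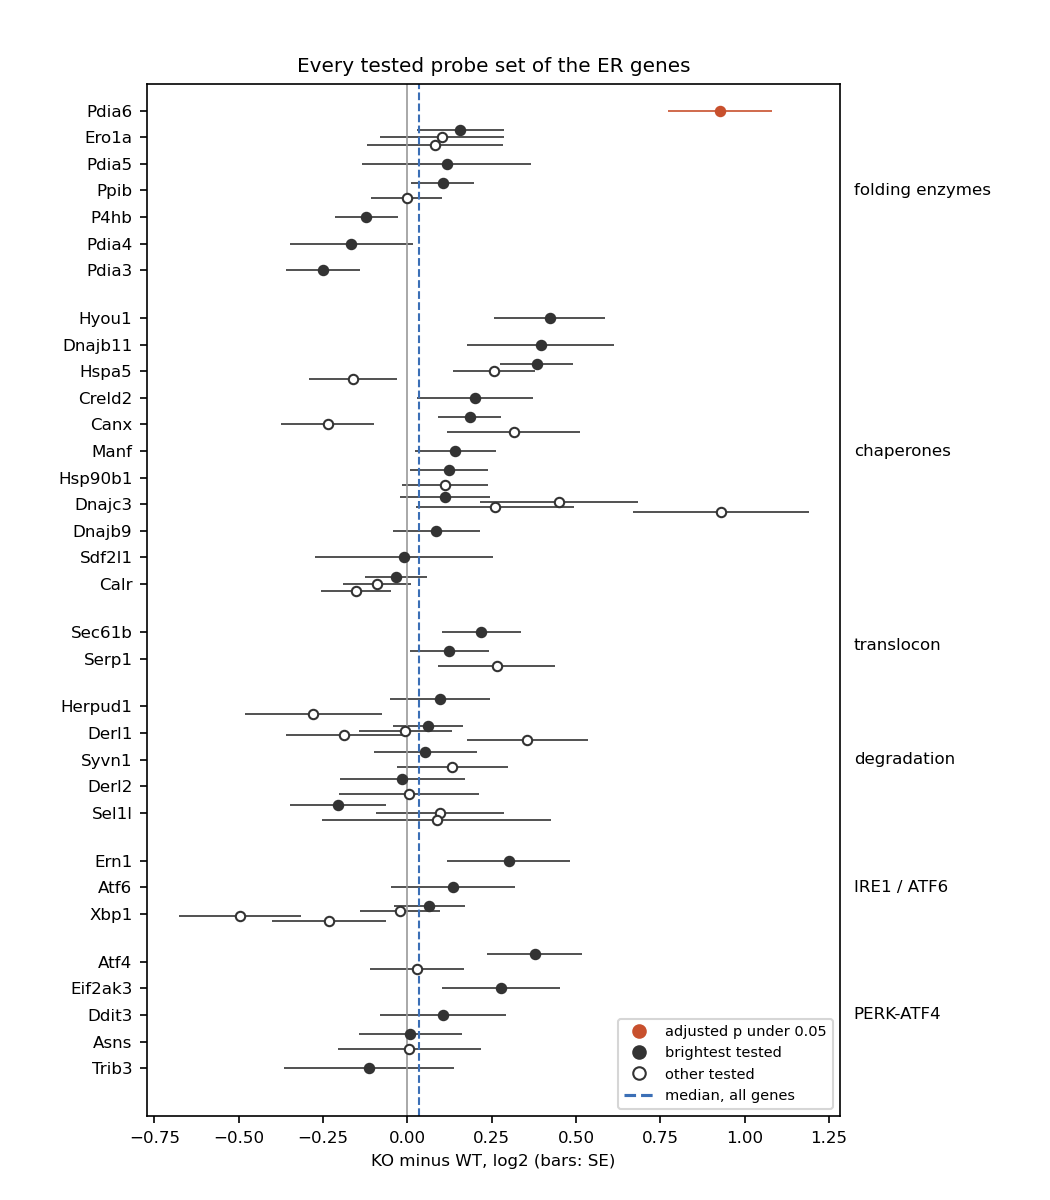
Difference between KO and WT (log2) with its standard error for each of the 60 tested probe sets of the ER genes; filled points are the brightest tested probe set of a gene, open points the others, and red marks the 1 with an adjusted p under 0.05. Open and filled points fall on both sides of 0 for 8 of the 16 genes with several tested probe sets, Xbp1, Hspa5 and Canx among them.

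Of the 11 chaperones and co-chaperones, 0 passed in limma, with 2 at an unadjusted p under 0.05, both higher, where 8.42% of all genes were higher at that level. Of the 11 differences 9 were positive, against 55.7% of all genes, and their median was 0.14, against 0.035. Hspa5 encodes BiP, the Hsp70 chaperone of the ER whose transcript is the standard readout of the unfolded protein response. Its signals at 1416064_a_at were 2978 and 3431 in WT against 3850 and 4514 in KO. The KO arrays lay above the WT arrays, and the difference was 0.38 ± 0.11 (1.30-fold, 95% interval 0.15 to 0.62), short of the threshold (adjusted p = 0.111 in limma, unadjusted p = 0.00333). With 1 array left out, the difference ran from 0.27 (without KO replicate 2) to 0.50 (without KO replicate 1).

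The 3 Hspa5 probe sets differed in sign. Probe set 1427464_s_at measured 1413 and 1435 in WT against 1511 and 1918 in KO (0.26 ± 0.12). Probe set 1447824_x_at measured 634 and 734 in WT against 578 and 643 in KO (-0.16 ± 0.13), with overlapping groups. Neither passed the test.

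None of the partners of BiP passed the test. Hyou1, an Hsp110-type chaperone and exchange factor of BiP, had signals of 365 and 269 in WT against 394 and 447 in KO. Its KO arrays lay above its WT arrays, but the WT arrays stood far apart (0.42 ± 0.17, adjusted p = 0.247 in limma). Dnajb11, a J-protein that hands clients to BiP, measured 211 and 381 in WT against 364 and 382 in KO, so that 1 low WT array carried the difference (0.39 ± 0.22, adjusted p = 0.402). Without WT replicate 1 that difference was -0.030, and without WT replicate 2 it was 0.82. Dnajb9, a J-protein that restrains IRE1, stood at 0.086 ± 0.13.

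Dnajc3, a J-protein also known as an inhibitor of PERK, measured 396 and 430 in WT against 443 and 449 in KO at its brightest probe set (0.11 ± 0.13). Its dim probe set 1449373_at, chosen here after its values were seen, measured 43.4 and 42 in WT against 86.6 and 76.2 in KO. Both KO arrays there lay well above both WT arrays, and the difference was 0.93 ± 0.26, short of the threshold (adjusted p = 0.111 in limma). The other tested Dnajc3 probe sets stood at 0.26 ± 0.23 and 0.45 ± 0.23. The latter, 1419163_s_at, was called Absent on both WT arrays and entered the test through its KO calls alone. Its groups overlapped, at 97.3 and 157.8 in WT against 150.7 and 190.1 in KO.

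The lectin chaperones and the Hsp90 of the ER had small differences, none past the threshold. Calr, calreticulin, which folds glycoproteins and binds the calcium of the ER, measured 3865 and 4204 in WT against 3979 and 3893 in KO. The groups overlapped, and the difference was -0.035 ± 0.092 with a 95% interval of -0.23 to 0.16 (adjusted p = 0.895 in limma). Canx, its membrane-bound relative calnexin, measured 3270 and 3073 in WT against 3609 and 3595 in KO (0.18 ± 0.093, adjusted p = 0.361), with -0.24 ± 0.14 and 0.31 ± 0.20 at its other probe sets. Hsp90b1, the chaperone GRP94, measured 2177 and 1950 in WT against 2036 and 2475 in KO (0.12 ± 0.12).

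Manf, a small secreted protein induced by ER stress, measured 896 and 774 in WT against 909 and 929 in KO (0.14 ± 0.12). Creld2, another secreted product of the stress response, measured 229 and 195 in WT against 265 and 222 in KO (0.20 ± 0.17). Sdf2l1, a partner of the BiP cycle, measured 152 and 81.7 in WT against 109 and 112 in KO (-0.011 ± 0.26), the least precise of the 33 differences. None of these 3 targets of the stress sensors passed the test.

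At the channel through which proteins enter the ER, Sec61b, its beta subunit, measured 1016 and 891 in WT against 1083 and 1133 in KO. The KO arrays lay above the WT arrays and the difference was 0.22 ± 0.12, short of the threshold (adjusted p = 0.386 in limma). Serp1, a stress-associated protein that stabilises membrane proteins at the channel, measured 902 and 893 in WT against 915 and 1045 in KO (0.12 ± 0.12). Its other probe set stood at 0.26 ± 0.17.

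The degradation genes gave 5 tested genes of 6, of which 0 passed in limma, against 1.3% of all genes. At an unadjusted p under 0.05 there were 0, against 15.6%, and the median difference was 0.053. Sel1l, the scaffold of the main ubiquitin ligase of the ER membrane, measured 377 and 404 in WT against 354 and 323 in KO. Its KO arrays lay below its WT arrays (-0.21 ± 0.14, adjusted p = 0.506 in limma), while its 2 other tested probe sets stood at 0.096 ± 0.19 and 0.087 ± 0.34. Syvn1, the ligase HRD1 that Sel1l holds, measured 258 and 253 in WT against 274 and 256 in KO (0.053 ± 0.15). Derl1 and Derl2 encode derlins, membrane proteins of the export channel. Derl1 measured 1464 and 1543 in WT against 1585 and 1553 in KO (0.061 ± 0.10). Its other tested probe sets differed in sign, at 0.36 ± 0.18, -0.19 ± 0.17 and -0.0060 ± 0.14. Derl2 stood at -0.015 ± 0.19, with 0.0052 ± 0.21 at its other probe set.

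Herpud1, a ubiquitin-like membrane protein of the ligase complex and a target of both ATF6 and ATF4, measured 431 and 452 in WT against 416 and 536 in KO (0.097 ± 0.15). At its other probe set the KO arrays read 248 and 418 against 413 and 370 in WT (-0.28 ± 0.20), and the groups overlapped at both. Edem1, a lectin that marks misfolded glycoproteins for removal, was called Absent on all 4 arrays at both of its probe sets and was not tested. Its signals at 1424065_at were 74.4 and 70.4 in WT against 101 and 95.3 in KO. At 1451218_at they were 85.7 and 90 in WT against 96.5 and 93.8 in KO.

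The IRE1 and ATF6 branch showed no difference past the threshold, with 0 of 3 genes called in limma. At an unadjusted p under 0.05 there were 0, against 15.6% of all genes. Ern1 encodes IRE1, the kinase and RNase that splices the Xbp1 transcript, and measured 143 and 134 in WT against 183 and 160 in KO (0.30 ± 0.18, adjusted p = 0.449). That sign turned in the signal log ratio (-0.10), and the other 4 Ern1 probe sets were not tested. Atf6, the sensor that is cut in the Golgi to release a transcription factor, measured 201 and 263 in WT against 284 and 224 in KO (0.14 ± 0.18), a sign that turned with WT replicate 1 (-0.058) or KO replicate 1 (-0.037) left out.

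Xbp1, the transcription factor made from the spliced message, measured 1480 and 1511 in WT against 1510 and 1620 in KO at 1437223_s_at (0.065 ± 0.10, adjusted p = 0.806 in limma). Its other 3 tested probe sets were all negative, and 1420011_s_at, named after its values were seen, measured 815 and 581 in WT against 411 and 579 in KO (-0.50 ± 0.18, adjusted p = 0.219). WT replicate 2 and KO replicate 2 were nearly equal there, so the difference rested on the first replicate of each group. Which Xbp1 splice forms the probe sets read is not stated in the annotation used, and splicing by IRE1 was not measured.

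In the PERK and ATF4 branch 0 of 5 genes passed in limma, against 1.3% of all genes. At an unadjusted p under 0.05, 1 was higher, against 8.42%, and the median difference was 0.11, against 0.035. Eif2ak3 encodes PERK, the kinase that slows translation, and measured 147 and 156 in WT against 180 and 187 in KO. The KO arrays lay above the WT arrays (0.28 ± 0.17, adjusted p = 0.464). Atf4, the factor translated under PERK activity, measured 655 and 682 in WT against 753 and 1002 in KO at 1448135_at. The KO arrays again lay above (0.38 ± 0.14, adjusted p = 0.228, or 0.58 without KO replicate 1). The Atf4 probe set 1438992_x_at stood at 0.029 ± 0.14, with overlapping groups. The sign there turned with quantile normalization (-0.011) and median centring (-0.0023).

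None of the members that are ATF4 targets passed the test. Asns, asparagine synthetase, which carries the ATF4 element shown above, measured 266 and 252 in WT against 266 and 255 in KO (0.0085 ± 0.15, 95% interval -0.32 to 0.34). Ddit3, the stress factor CHOP, measured 162 and 136 in WT against 168 and 152 in KO (0.11 ± 0.19). Trib3, a pseudokinase induced through CHOP, measured 68.5 and 73.9 in WT against 73.5 and 58.8 in KO (-0.11 ± 0.25), with Present calls in WT and none in KO. The groups overlapped for these 3 genes.

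Among 113 further genes of the same pathways, 98 were tested. In limma 0 were higher and 1 was lower at the brightest tested probe set, against 0.481% and 0.815% of all genes. With unadjusted p under 0.05 there were 15 higher and 9 lower of the 98, where all genes tested had 8.42% higher and 7.14% lower. Protein translocation and glycosylation had 22 tested genes, of which 17 had a positive difference, against 55.7% of all genes, and 7 were higher at an unadjusted p under 0.05, against 8.42%. Their median difference was 0.14, against 0.035 for all genes. Stt3b, a catalytic subunit of the oligosaccharyltransferase, measured 1501 and 1608 in WT against 1986 and 2097 in KO (0.39 ± 0.10, adjusted p = 0.0843). Sec63, a J-protein at the Sec61 channel, measured 157 and 144 in WT against 241 and 216 in KO (0.60 ± 0.17, adjusted p = 0.115). Its probe set 1424925_at passed (0.88 ± 0.19, adjusted p = 0.0436), and 1424924_at stood at -0.057 ± 0.22.

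The wider list of ER folding had 19 tested genes, 13 with a positive difference, against 55.7% of all genes. Their median was 0.11, against 0.035. Sdf2, a relative of the member Sdf2l1, measured 613 and 606 in WT against 864 and 821 in KO (0.47 ± 0.12, adjusted p = 0.0768 in limma). Serpinh1, the collagen chaperone HSP47, measured 3629 and 3330 in WT against 2830 and 2739 in KO (-0.32 ± 0.095, adjusted p = 0.128). Its KO arrays lay below its WT arrays, as did those of Col1a1, a chain of the collagen it folds, at 2165 and 2206 in WT against 1330 and 1301 in KO. Cnpy2 passed at 1459846_x_at alone (-1.02 ± 0.22, adjusted p = 0.0374), with 0.11 ± 0.11 at its brightest probe set.

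**Figure D3:**
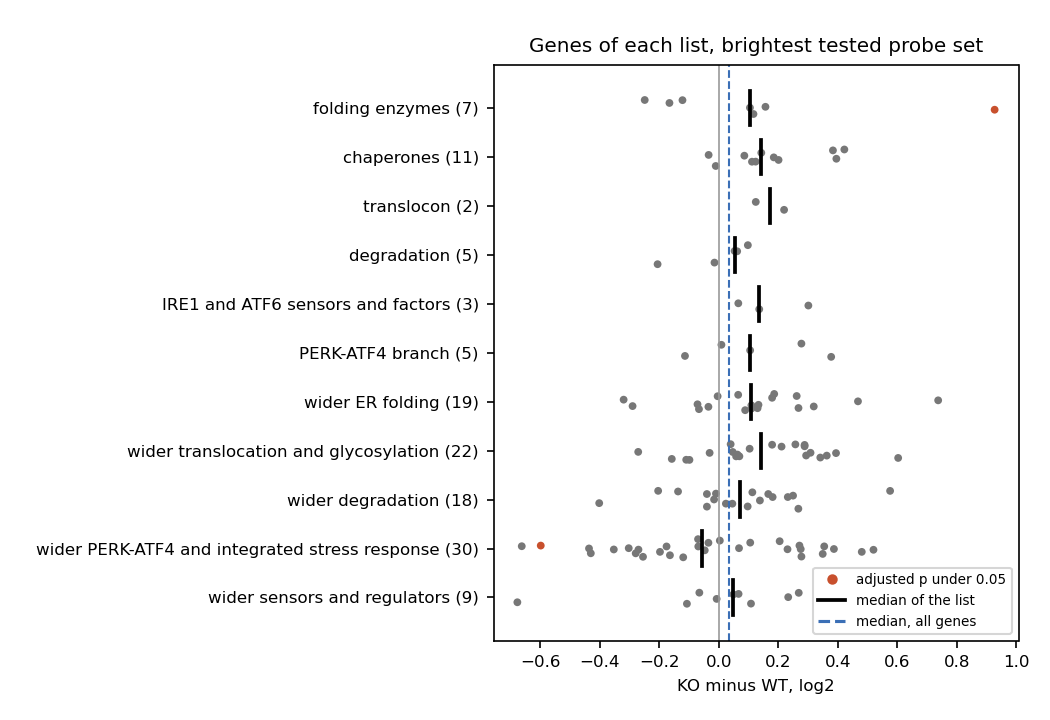
Difference between KO and WT (log2) of every tested gene in the 6 role groups of the ER genes and in the 5 wider lists, with the number of tested genes in brackets; black bars are list medians, the dashed line is the median of all genes tested and red points have an adjusted p under 0.05. Pdia6 stands alone to the right among the folding enzymes, and the median of the wider PERK-ATF4 list is the only list median below 0.

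The wider degradation list had 18 tested genes, a median of 0.071 and 0 calls in limma. At an unadjusted p under 0.05, where all genes had 8.42% higher and 7.14% lower, the list had 1 higher and 1 lower. These were Edem2, a lectin of the same family as Edem1 (0.58 ± 0.23, adjusted p = 0.259), and Rnf5, a membrane ubiquitin ligase (-0.40 ± 0.13, adjusted p = 0.148). Of 9 other sensors and regulators tested, 0 passed, with a median of 0.049. Atf6b, a relative of Atf6, measured 144 and 121 in WT against 71.5 and 95.5 in KO (-0.68 ± 0.22, adjusted p = 0.175), and Tmbim6, a calcium channel regulator of the ER membrane, stood at 0.27 ± 0.12.

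The wider PERK-ATF4 and integrated stress response list had 30 tested genes, with a median of -0.058. Of these 13 were positive and 17 negative, where 55.7% of all genes were positive. At an unadjusted p under 0.05 in limma, 2 were higher and 5 lower, against 8.42% and 7.14% of all genes. Vldlr, a lipoprotein receptor that ATF4 can induce, was the 1 gene called, at 1320 and 1303 in WT against 785 and 955 in KO (-0.60 ± 0.12, adjusted p = 0.0276 in limma). With WT replicate 1 left out the difference was -0.59, and with WT replicate 2 left out it was -0.61. The size thus held with either WT array left out, and the call did not. The call also ended without the filter on detection (adjusted p = 0.241), without a variance trend (adjusted p = 0.277) and in the signal log ratio (-0.050, adjusted p = 0.925). The other Vldlr probe sets stood between -0.57 and 0.39. Tars, threonyl-tRNA synthetase, measured 229 and 228 in WT against 299 and 359 in KO (0.52 ± 0.16, adjusted p = 0.134).

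Several features of the libraries moved with genotype. Hdac2 at 1445684_s_at measured 1189 and 1421 in WT against 31.4 and 21 in KO, a drop of at least 50.6-fold. This is as the titles label the arrays, although the source label of the KO samples contains "wt" too. The list of fast and embryonic skeletal muscle had 9 genes, of which 9 fell, and their summed signal was 12824 and 12027 in WT against 1165 and 1096 in KO. Of 3 tested bone genes, 2 fell, Ibsp and Dmp1, both with signals of at most 1.1 in KO, and 2 of 7 fibroblast and matrix genes fell, with summed signals of 17557 and 17775 in WT against 14756 and 15917 in KO. The 9 heart muscle genes had no call and sums of 108115 and 106348 in WT against 103601 and 108662 in KO. In the erythroid list 1 gene, Hbb-y, was higher, at 9.8 and 18.8 in WT against 77.2 and 55.6 in KO. It was called Absent on both WT arrays and entered the test through its KO calls alone. The erythroid genes Alas2 (0.31 ± 0.15) and Slc4a1 (-0.012 ± 0.26) did not pass. Cartilage, endothelium, smooth muscle, macrophage and plasma cell and gland lists had 0 calls. Of these, the cartilage sum was 363 and 300 in WT with 197 and 227 in KO. The macrophage sum was 857 and 977 in WT with 682 and 679 in KO. The endothelial sums were 1973 and 1957 in WT with 1897 and 2264 in KO. In these lists, Col2a1, Matn1, Myh11, Hba-a1 and C1qa had no Present call on any array. Xist rose, at 80.5 and 90.1 in WT against 548 and 794 in KO (2.95 ± 0.19). The Y-linked Eif2s3y (-1.34 ± 0.23) and Uty (-1.29 ± 0.23) fell. Whether the WT and KO pools differed in the sex of their embryos was not tested. The 3' to 5' signal ratio of the actin control, which rises as RNA shortens, stood at 1.85 and 2.32 in WT against 2.75 and 2.42 in KO. The part of these features in the differences of the ER genes was not tested.

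**Figure D4:**
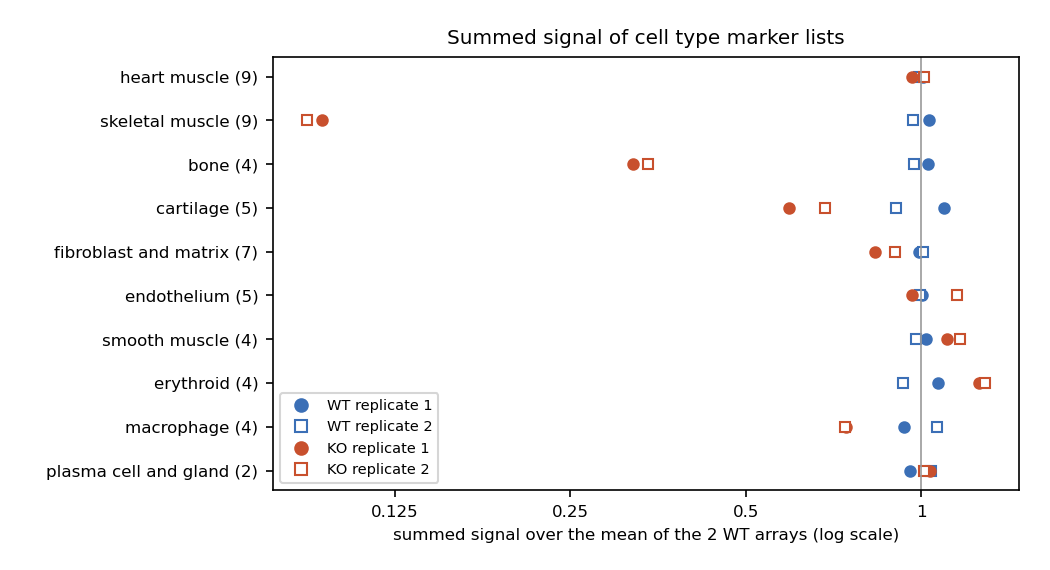
Summed signal of each cell type marker list on each array over the mean of the 2 WT arrays, on a log axis, with the number of genes on the array in brackets; circles are replicate 1 and squares replicate 2, blue for WT and red for KO. The skeletal muscle sum in KO is 0.0910 of that in WT and the bone sum 0.330, while the heart muscle sum is 0.990.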

How the data were processed

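The authors deposited MAS5 signals (tool named in the submitters' processing notes, version not given in the sources used here), linear intensity values from single-colour arrays of 6 µg total RNA. Each deposited array had a 2%-trimmed mean signal of 150, and the deposited series table held the same intensities. Per the file headers, the arrays carry a detection p-value, a call of Present, Marginal or Absent, and a signal log ratio against an unnamed baseline array, which is on a log2 scale by MAS5's definition.

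Of 45101 probe sets, 64 controls were left out. Genes were named from the platform annotation, 34945 probe sets naming 1 gene, 932 several and 9160 not listed, with symbols updated through a RefSeq table of GRCm38.p6 (34741 matched). The test took probe sets with Present calls on both arrays of either group (19065, of which 16669 name 1 gene). Signals under 0.1 were set to 0.1, and log2 signals were fitted with limma 3.58.1 (lmFit, eBayes with a variance trend) in R 4.3.3, genotype as sole factor, two-sided, with Benjamini-Hochberg adjustment over all tested probe sets. The script was checked on simulated data. Each gene is given at its tested probe set with the highest mean log2 signal. For marker lists the highest mean signal was used, and an untested probe set only where none was tested. Where a group has no Present call, a fold is "at least": per array the higher of the dim signal and the lowest Present signal stands for the dim group.

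The members and lists were chosen with earlier results of these data known. Signals on all arrays were given for members past the threshold, the brightest and the smallest p of each role group, the 8 smallest p and other members. In each wider list, genes past the threshold and the 2 with the smallest p were named. Sec63 1424925_at, Cnpy2 and Col1a1 were chosen after their values were seen. The number of arrays limits the precision. A probe set annotated to both Sec61b and another gene was left out. Alternatives were quantile normalization, median centring (probe sets with 4 Present calls), offsets of 16 and 64, other filters and variance priors, the signal log ratio (variance trend on the log2 signal), each array left out and the replicate number as a block.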

Additional observations from a re-analysis of the deposited data

How the results depend on the processing

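Across the array, 256 probe sets passed (73 higher, 183 lower), against 37 (7 and 30) without a filter on detection, 23 (4 and 19) without a variance trend and 1 (0 and 1) with the signal log ratio. With 1 array left out the count was 163 to 650 (48 to 222 higher and 110 to 428 lower), the lone array of a group being assumed to vary like the other group. Of the ER member probe sets, 1 passed, and 0 did without a filter on detection, without a variance trend or with the signal log ratio, and 1 to 3 with 1 array left out. The wider lists had 1 call, and 0 in those 3 settings and 0 to 2 with 1 array left out. The median difference of the 33 ER genes was 0.11, moved to 0.087 with quantile normalization and 0.080 with median centring, and ran from 0.091 to 0.14 with 1 array left out.

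The replicate numbers of the titles are shared between groups, but the labels do not say that a number marks a litter or day. The difference between the 2 WT arrays and that between the 2 KO arrays correlated at r = -0.011 across tested probe sets. With the replicate number as a block, 721 probe sets passed (271 higher, 450 lower), 2 ER member probe sets, those of Pdia6 and Hspa5, and 4 genes of the wider lists.

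Of 33 ER genes, 19 turned sign under none of these alternatives, counting Manf, which stood at 0 in the signal log ratio. With quantile normalization the sign turned for Sdf2l1 (0.060), Derl2 (0.00062), Asns (-0.0032), Trib3 (0.010) and Atf4 1438992_x_at (-0.011), with median centring for Asns (-0.023) and Atf4 1438992_x_at (-0.0023), and in the signal log ratio for Sdf2l1 (0.10), Syvn1 (-0.050), Ern1 (-0.10), Xbp1 (-0.050) and Ddit3 (-0.15). With 1 array left out the difference ran from -0.32 to 0.55 for Pdia5, from -0.017 to 0.26 for Hsp90b1, from -0.10 to 0.026 for Calr, from -0.030 to 0.82 for Dnajb11, from -0.46 to 0.43 for Sdf2l1, from -0.087 to 0.28 for Herpud1, from -0.17 to 0.14 for Derl2, from -0.058 to 0.33 for Atf6, from -0.020 to 0.23 for Ddit3, from -0.028 to 0.045 for Asns, from -0.28 to 0.047 for Trib3 and from -0.10 to 0.16 for Atf4 1438992_x_at. None of these differences passed the test in the fit on all arrays. The cause of these changes was not tested.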
